A study of Mus musculus with 6 samples.

Results

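Keratins are the intermediate filament proteins of epithelial cells, and every keratin gene on a mouse expression array was followed here across 6 samples of cochlear RNA. The genes were those whose name on the array is Krt followed by a number and at most a letter, with the keratin-associated proteins (Krtap genes) left out. They came to 68 probes for 52 genes, of 56589 probes and 37318 genes measured. The RNA came from the cochlea, the hearing organ of the inner ear, of female C57BL/6 mice aged 6 weeks, with 6 mice in each group, and each of the 6 groups was hybridised to 1 array. The baseline group had neither noise nor drug, and the noise-only group had 2 h of intense noise with no injection; how long after the noise that group was sampled is not given in its labels. The other 4 groups had the same noise, then at once saline or dexamethasone by intraperitoneal injection, dexamethasone being a synthetic glucocorticoid (10 mg/kg; the label's wording is dexamethasone sodium triphosphate), and were sampled at 12 h or 24 h. The labels do not say whether the RNA of the 6 mice was pooled. With 1 array a group, every difference between 2 arrays is without a replicate check, and it compares those arrays, not the conditions.

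A keratin filament is built from pairs of a type I (acidic) and a type II (basic) keratin, and the pair made by a cell marks the kind of epithelium it belongs to. Single-layered, or simple, epithelia make Krt8 with Krt18 and Krt19, and such keratins are made in the epithelium of the inner ear. The basal layer of stratified epithelia makes Krt5 with Krt14, the layers above it in skin make Krt1 with Krt10, those of the mouth and oesophagus make Krt4 with Krt13, and wounded or fast-renewing stratified epithelium adds Krt6a, Krt6b, Krt16 and Krt17. Hair and nail are built from a further set of hard keratins, and the inner root sheath of the hair follicle from another.

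The 52 genes were placed in 8 classes: 5 simple, 3 basal, 7 suprabasal epidermal, 5 activated or appendage, 5 mucosal or corneal, 9 inner root sheath, 15 hair and nail, and 3 others (Krt23, Krt80 and the keratin-like Krt222). The basal, suprabasal, activated and mucosal classes together are called stratified below and hold 20 genes. Levels are given as log2 of the background-corrected signal relative to the array's own 75th percentile over all probes, so that 0 is that percentile and 1 unit is a 2-fold step. Levels of different probes are not compared with each other. A keratin counted as measured in a comparison where the scanner software marked it well above background on both arrays, and it was called higher or lower when the difference was at least 2-fold. The interval after a fold is the 95% interval from the scanner software's spot errors, and covers the reading of the spots only.

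The 60-base array probes decide what each value means. Positions are those of the array's annotation on the mouse build mm9, and exon boundaries on mm9 were not used here. The probes of the hair keratins Krt81 and Krt83 share 51 of 55 overlapping bases (92.7%); cross-hybridisation was not tested, so the values of both are uncertain, and the Krt83 probe is also assigned to Krt87 in the GRCm38.p6 gene table. The Krt85 probe is listed without a position, and its values are uncertain too. Much of the text below rests on the probes of the mucosal keratins Krt13 and Krt24 and of the simple keratins Krt19 and Krt7. These had no such near copy among the keratin probes. That search set probes against probes only and could not see a match elsewhere in another keratin's transcript. Cross-hybridisation of these probes was not tested either.
Krt13, chr11:99980412-99980471, minus strand: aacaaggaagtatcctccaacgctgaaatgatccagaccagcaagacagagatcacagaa
Krt24, chr11:99143994-99144053, minus strand: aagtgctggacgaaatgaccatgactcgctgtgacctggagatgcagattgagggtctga
Krt19, chr11:100002392-100002451, minus strand: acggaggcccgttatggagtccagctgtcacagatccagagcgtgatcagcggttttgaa
Krt7, chr15:101253718-101253777, plus strand: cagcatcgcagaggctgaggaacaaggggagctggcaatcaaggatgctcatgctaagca

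RefSeq promoter sequences (GRCm38.p6) were matched for 35 of the 52 genes. The 6 letters TATAAA, the core of the TATA box, occurred on either strand in the 50 bases before the start of 15 of these 35 promoters (42.9%), against 1127 of 27025 promoters of all genes (4.17%). The 15 were Krt10, Krt12, Krt20, Krt25, Krt26, Krt27, Krt28, Krt31, Krt32, Krt33b, Krt34, Krt40, Krt71, Krt73 and Krt76, so that root sheath and hair keratins made up 11 of them. The letters did not follow the differences with dexamethasone at 12 h described below. Krt10 and Krt76 held them and were lower, and Krt13 was matched without them and was lower. Krt20, Krt25, Krt27, Krt28 and Krt31 held them and were not 2-fold lower. Krt32 held them, and its 2 probes disagreed. The probe used stood at -4.29 with saline and -3.57 with dexamethasone. The other probe stood at -3.65 with saline and, not well above background, at -6.65 with dexamethasone. The 100 bases before the start are shown for 2 genes with the letters, in capitals, and for Krt5 without them, all chosen with their values known.
Krt10, chr11:99389365-99389464, minus strand: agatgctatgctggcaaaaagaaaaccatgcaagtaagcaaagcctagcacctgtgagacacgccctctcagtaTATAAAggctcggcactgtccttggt
Krt76, chr15:101892921-101893020, minus strand: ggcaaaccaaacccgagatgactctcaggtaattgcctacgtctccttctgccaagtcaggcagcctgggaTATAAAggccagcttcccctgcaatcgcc
Krt5, chr15:101712906-101713005, minus strand: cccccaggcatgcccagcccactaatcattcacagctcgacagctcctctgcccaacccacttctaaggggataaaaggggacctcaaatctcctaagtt
The palindromic glucocorticoid response element, searched as its consensus on both strands in the 250 bases before the start, was in 0 of the 35 keratin promoters and in 3 of 27025 promoters (0.011%). A pattern this rare could hardly occur among 35 promoters, so the 0 is not a result about keratins. The AP-1 site, searched as TGANTCA in the same window, was in 1 keratin promoter (2.86%), that of Krt13, and in 7.82% of all promoters. These are matches of letters in a short window, and say nothing about binding.

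Of the 52 keratins, 24 were well above background on all 6 arrays, 18 on 1 to 5 arrays and 10 on none. All 5 simple keratins, all 3 basal keratins and all 3 of the other class were above background everywhere. Among the 10 that never were, 8 were hair or nail keratins (Krt33b, Krt34, Krt35, Krt36, Krt39, Krt40, Krt82 and Krt84), and the remaining 2 were Krt12, the keratin of the corneal epithelium, and Krt73, a root sheath keratin. The number of keratins above background was 34 at baseline, 27 after noise alone, 40 with saline and 37 with dexamethasone at 12 h, and 30 with saline and 27 with dexamethasone at 24 h. Of all probes, 67.9% were well above background at baseline and 68.4% after noise alone. The shares with saline and dexamethasone were 70.3% and 67.5% at 12 h, and 63.0% and 64.7% at 24 h. Both 12 h arrays had more keratins above background than any other array. The saline array at 12 h, with the most keratins, also had the highest share of all probes, and the 24 h arrays had the lowest shares. The 12 h arrays are on a second slide and the other 4 arrays share the first.

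**Figure D1:**
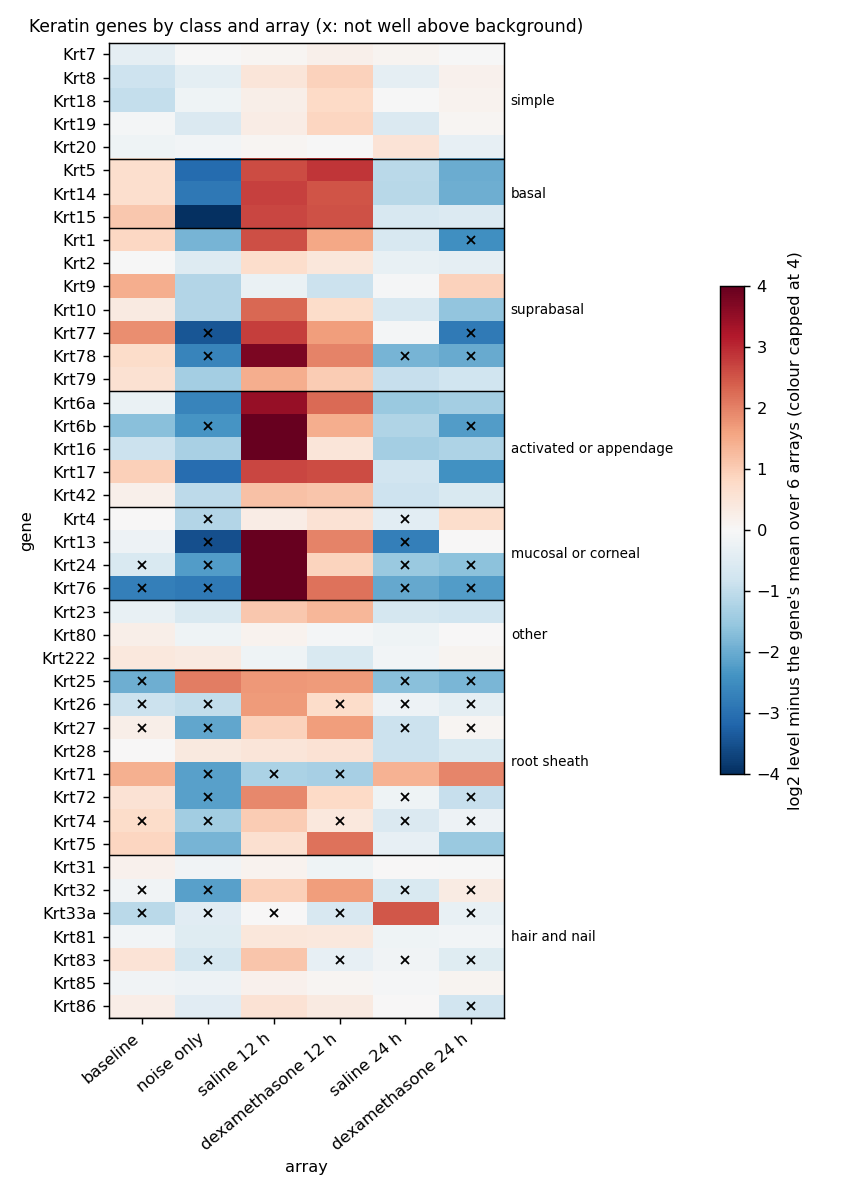
Log2 level of the 42 keratins well above background on at least 1 array (rows, by class) on each of the 6 arrays (columns), minus the gene's mean over the arrays; red is above and blue below that mean, and an x marks a value not well above background. Most basal, suprabasal, activated and mucosal keratins were high on the 12 h arrays, and so were Krt8, Krt18 and Krt19, over narrower ranges of 1.76, 1.73 and 1.42 log2 units.

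Summed over the class, the stratified keratins reached 25.7 times the array's 75th percentile at baseline, 4.32 after noise alone, 128 with saline and 71.8 with dexamethasone at 12 h, and 9.32 with saline and 6.56 with dexamethasone at 24 h. The summed simple keratins moved over a narrower range, from 13.4 at baseline to 20.2 after noise, 29.3 and 41.7 at 12 h with saline and dexamethasone, and 22.1 and 26.2 at 24 h. Hair and nail keratins summed to between 1.55 and 2.16 on every array, most of it from the uncertain Krt85 probe; without Krt85 the sum was between 0.333 after noise alone and 0.577 with saline at 12 h. The order of the 12 h arrays therefore differed between classes, with saline above dexamethasone for the stratified sum and below it for the simple sum. In bulk RNA, fewer cells of a type and less RNA per cell cannot be told apart.

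Genes of neighbouring or overlying tissue also differed between the arrays, and their levels are given here once. The cornified envelope list had the same order of the 6 arrays as the stratified sum, while the mucosa list was higher with dexamethasone than with saline at 12 h, and the muscle and cerebellar lists were higher after noise alone than at baseline, where the stratified sum was lower. The 15 genes of the cornified envelope on the array (Lor, Flg2, Sbsn and others, which harden the outermost skin cells) summed to 32.2 at baseline, 5.21 after noise, 93.8 and 56.9 at 12 h with saline and dexamethasone, and 11.0 and 5.69 at 24 h. The 9 genes of mucosa and glands, among them the airway and middle ear secretory gene Bpifa1, summed to 350 at baseline, 250 after noise, 817 and 1167 at 12 h, and 222 and 192 at 24 h. Of the defining mucosal markers, Muc5b stood at 6.16 and 6.93 on the 12 h arrays with saline and dexamethasone and between -2.05 and 0.17 on the others. The members did not all move alike. With saline at 12 h, 6 of 9 were 2-fold higher than at baseline, beside 4.41% of all measured genes. Bpifa1 stood at 7.91 at baseline and 7.87 with saline at 12 h, and Lcn2 at 5.35 and 5.47. Skeletal muscle genes summed to 121 at baseline, 228 after noise, 450 and 295 at 12 h, and 265 and 161 at 24 h. Cerebellar genes summed to 10.8 at baseline, 80.9 after noise, 65.4 and 64.5 at 12 h, and 17.3 with saline at 24 h, with dexamethasone at 24 h lower still. All 6 of the muscle genes and at least 5 of the 6 cerebellar genes were above background on every array. Hair follicle markers had 4 or 5 of 8 genes above background, with Hoxc13, Foxn1 and Dsg4 below it on all 6 arrays. The part of these tissues in the keratin values was not tested.

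**Figure D2:**
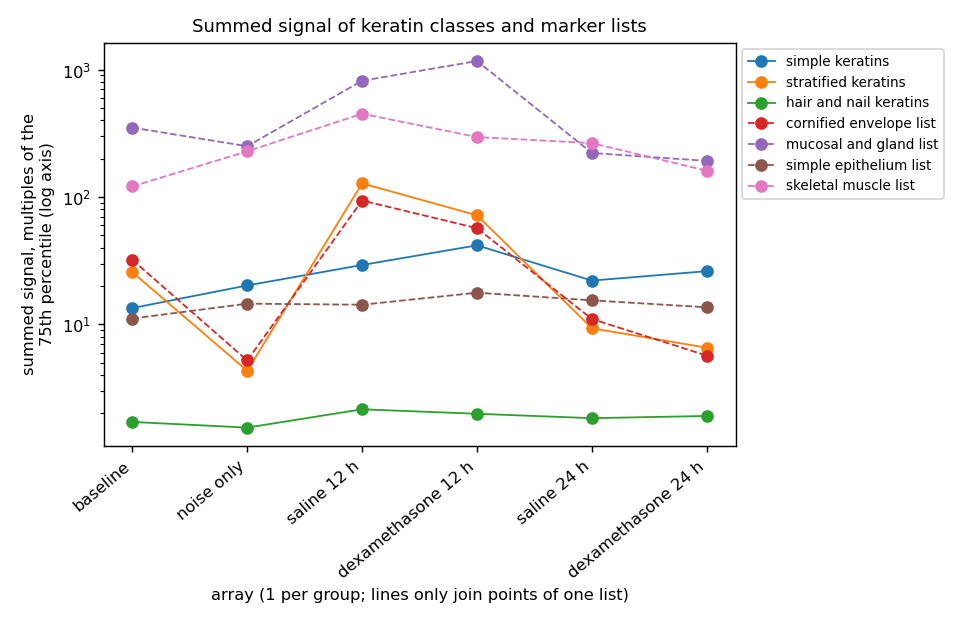
Summed signal of 3 keratin classes (solid lines) and 4 marker lists (dashed lines) on each array, as multiples of the array's 75th percentile on a log axis. The stratified keratins and the cornified envelope list both were lowest after noise alone (4.32 and 5.21) and highest with saline at 12 h (128 and 93.8), and the hair and nail keratins stayed between 1.55 and 2.16.

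The levels of the stratified keratins are given here array by array, in the order baseline, noise alone, the 12 h arrays (saline, then dexamethasone) and the 24 h arrays (likewise). In the basal layer, Krt5 stood at 1.42, -2.34, 3.35, 3.60, -0.33 and -1.24. Its partner Krt14 stood at 2.21, -1.31, 4.28, 4.06, 0.44 and -0.42, and Krt15 at 1.35, -4.84, 2.93, 2.82, -0.36 and -0.27. All 3 were highest on the 12 h arrays and lowest after noise alone. In the activated class, Krt17 stood at 2.33, -1.68, 4.04, 3.97, 0.60 and -1.04, and Krt42 at -1.34, -2.57, -0.35, -0.42, -2.35 and -2.13. Krt6a stood at 0.23, -2.15, 3.97, 2.73, -1.001 and -0.89, and Krt16 at -1.24, -1.65, 3.90, 0.13, -1.73 and -1.62. Krt6b stood at -4.60, -5.28, 3.11, -1.47, -4.12 and -5.16, not well above background after noise alone and with dexamethasone at 24 h. Krt6a, Krt16 and Krt6b were highest with saline at 12 h, where dexamethasone was lower, while Krt17 and Krt42 were close on the 12 h arrays.

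In the same order, the suprabasal Krt10 stood at 2.20, 0.69, 4.16, 2.60, 1.20 and 0.29. Its partner Krt1 stood at -2.41, -5.08, -0.66, -1.70, -3.89 and, not well above background, -5.68. Krt79 stood at 1.61, -0.35, 2.46, 2.00, 0.08 and 0.19. All 3 were highest with saline at 12 h. Krt77 stood at -2.19, -7.48, -1.29, -2.37, -4.12 and -6.89, below background after noise alone and with dexamethasone at 24 h, and Krt78 at -4.15, -7.50, -1.10, -2.87, -6.73 and -6.89, below it on those arrays and with saline at 24 h. Krt9 had another order, at -1.20, -3.84, -2.94, -3.54, -2.71 and -1.75, with the baseline highest. Of the mucosal keratins, Krt13 stood at -4.40, -7.71, 0.26, -2.23, -6.93 and -4.17, below background after noise alone and with saline at 24 h. Krt4, its partner, stood at -4.22, -5.39, -3.95, -3.67, -4.64 and -3.54, below background on the same arrays. Krt24 and Krt76 were above background on the 12 h arrays only, Krt24 at -0.32 with saline and -4.51 with dexamethasone and Krt76 at 2.77 and -2.77. The root sheath keratin Krt72 stood at -4.69, -7.45, -3.36, -4.49, -5.44 and -6.21, above background at baseline and at 12 h only. Krt23, a type I keratin of other epithelia, stood at 1.04, 0.70, 2.39, 2.65, 0.62 and 0.53, highest on the 12 h arrays.

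The first comparison asked how keratins differed after noise alone. Of 26 keratins measured on both arrays, 11 were lower after noise and 0 were higher, that is, 42.3% lower where 3.17% of all 24161 measured genes were lower and 2.64% higher. All 3 basal keratins, 4 of 5 measured suprabasal keratins and 3 of 4 measured activated keratins were lower, while 0 of 5 simple and 0 of 4 measured hair keratins were. The median log2 difference was -2.51 over the 12 measured stratified keratins, 0.33 over the simple keratins and -0.32 over the hair keratins, beside -0.01 over all genes.

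Among basal keratins, Krt15, which is also made by stem cells of the hair follicle bulge, stood at 1.35 at baseline and -4.84 after noise, 73.2-fold lower (47.7 to 112). Krt5 went from 1.42 to -2.34, 13.5-fold lower (10.2 to 18.0). Its partner Krt14 went from 2.21 to -1.31, 11.5-fold lower (8.69 to 15.2). Krt17 of the activated class was 16.1-fold lower (12.2 to 21.3), at -1.68 from 2.33, and Krt6a 5.19-fold lower (3.92 to 6.89). The remaining keratins measured on both arrays and lower by 2-fold or more were Krt75 (6.60-fold), Krt1 (6.40-fold), Krt9 (6.23-fold), Krt79 (3.90-fold), Krt10 (2.86-fold) and Krt42 (2.36-fold). The other Krt1 probe, described below, differed by -0.54 on the log2 scale, short of 2-fold. Another 5 of the 52 keratins were above background at baseline and not after noise, and were lower by a bound of 2-fold or more. Among all 37318 genes, 259 were lower and 127 higher by such a bound. Krt77 was at least 9.62-fold lower, Krt71 at least 2.95-fold, Krt78 at least 2.47-fold, Krt4 at least 2.25-fold and Krt13 at least 2.08-fold. The single keratin seen after noise but not at baseline was Krt25, a root sheath keratin, which was at least 4.72-fold higher. Krt16, a partner of Krt6a in activated epithelium, was lower by 1.33-fold (1.01 to 1.76).

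The simple keratins differed less. Krt18 was 1.70-fold higher after noise (1.29 to 2.25) and Krt8 1.36-fold higher (1.03 to 1.79), while Krt19 was 1.41-fold lower (1.07 to 1.86). Krt7, found in ducts and other glandular epithelium, was 1.26-fold higher with an interval that includes no change (0.953 to 1.66), as was Krt20 (1.04-fold, 0.680 to 1.58). Both arrays lie on the same slide. Scaled on the spike-in RNA instead of on the 75th percentile, the median of all genes shifted by -0.11 in this comparison. The same number of keratins were lower (11), and Krt20 turned to the other side of 0 (-0.06). Here and below, keratin counts on the spike-in scale are given without the share of all genes on that scale.

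The second comparison set saline at 12 h against baseline. Of 33 keratins measured on both arrays, 15 were higher and 1 lower, or 45.5% higher and 3.03% lower, where 4.41% of all 24285 measured genes were higher and 3.43% lower. Higher were 3 of 3 basal, 4 of 5 activated, 3 of 7 suprabasal and 1 of 2 measured mucosal keratins, 2 of 5 simple keratins, Krt23 and the root sheath keratin Krt72. The 1 lower keratin was Krt9, the keratin of palm and sole epidermis, at -1.20 and -2.94 (3.34-fold, 2.50 to 4.47). Medians were 1.74 over 17 measured stratified keratins, 0.42 over simple and 0.31 over hair keratins, beside 0.06 over all genes.

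The sizes were greatest for keratins of activated and mucosal epithelium. Krt76, a keratin of the hard palate and gum, was not well above background at baseline (-7.67) and stood at 2.77 with saline at 12 h, at least 273-fold higher. Krt6b went from -4.60 to 3.11, 209-fold higher (140 to 314). Krt16 went from -1.24 to 3.90, 35.3-fold higher (26.7 to 46.6). Krt24 was not well above background at baseline (-6.02) and reached -0.32, at least 31.9-fold higher. Krt13 went from -4.40 to 0.26, 25.2-fold higher (17.7 to 35.7), whereas Krt4, its usual partner in the mucosa, stood at -4.22 and -3.95 (1.21-fold, 0.802 to 1.81). Krt25 and Krt32 were above background with saline at 12 h and not at baseline, at least 3.83-fold and 2.04-fold higher, and Krt71 the other way, at least 2.63-fold lower. Krt6a was 13.4-fold higher (10.13 to 17.6) and Krt78 8.27-fold higher (5.84 to 11.7).

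The basal keratins were higher by a narrower span. Krt14 was 4.21-fold higher (3.19 to 5.55), Krt5 3.81-fold higher (2.89 to 5.03) and Krt15 2.99-fold higher (2.27 to 3.95). The epidermal pair Krt10 and Krt1 was 3.88-fold and 3.34-fold higher, and Krt17 3.28-fold higher. A second Krt1 probe, annotated on the opposite strand to the first, stood at -3.93 on both arrays, so the 2 probes of this gene disagree; for the other 3 higher genes with further measured probes the directions were the same. Of the simple keratins, Krt8 was 2.51-fold higher (1.90 to 3.31) and Krt18 2.26-fold higher (1.71 to 2.98), while Krt7, Krt19 and Krt20 were within 1.34-fold.

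Here the arrays come from different slides, and the effect of the slide cannot be told apart from that of the group; the comparison is also the most open to the choice of scale. With spike-in scaling the median of all genes shifted by -0.82, and 8 keratins were higher and 3 lower, which took the share of higher among calls from 93.8% to 72.7%. The shares of all genes 2-fold apart on that scale are not given, so these counts are not set against them. The class medians of simple (-0.40), root sheath (-0.35) and hair (-0.51) keratins then lay below 0, as did Krt7, Krt19 and Krt20, while Krt8 (1.43-fold) and Krt18 (1.28-fold) stayed above 0. On that scale Krt5 was 2.16-fold, Krt14 2.39-fold and Krt10 2.20-fold higher, while Krt1, Krt8, Krt15, Krt17, Krt18, Krt23 and Krt72 were no longer 2-fold higher, and Krt75 and Krt222 joined Krt9 among the lower.

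The third comparison set saline at 24 h against baseline, on the same slide. Of 29 measured keratins 0 were higher and 11 lower (37.9%), where 1.72% of all 22966 measured genes were higher and 1.72% lower. The basal keratins were lower by nearly equal sizes: Krt14 by 3.41-fold (2.58 to 4.50), Krt5 by 3.36-fold (2.55 to 4.44) and Krt15 by 3.28-fold (2.48 to 4.33). Krt17 was 3.32-fold lower and Krt6a 2.34-fold lower (1.77 to 3.10). Krt77 was 3.82-fold lower (2.48 to 5.87), Krt79, made around the opening of the hair canal and the sebaceous duct, 2.89-fold, Krt9 2.85-fold, Krt1 2.81-fold, Krt75 2.31-fold and Krt42 2.02-fold lower. The other Krt1 probe differed by -0.67 on the log2 scale, short of 2-fold. Krt10 was 2.00-fold lower (1.51 to 2.64) and fell just short of the threshold. Krt16 and Krt6b, 35.3-fold and 209-fold above baseline at 12 h, were 1.40-fold lower and 1.40-fold higher (interval 0.828 to 2.36 for Krt6b) at 24 h; the 2 comparisons share the baseline array.

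The simple keratins at 24 h stood on the other side of baseline from the stratified ones, apart from Krt19. Krt18 was 1.90-fold higher (1.44 to 2.51), Krt20, a keratin of gut epithelium, 1.64-fold (1.07 to 2.52), Krt8 1.38-fold (1.05 to 1.83) and Krt7 1.37-fold (1.04 to 1.81). Krt19 was 1.42-fold lower (1.07 to 1.87). Medians were -1.50 over 14 measured stratified, 0.47 over simple and -0.11 over hair keratins, beside 0.01 over all genes. With spike-in scaling the median of all genes shifted by -0.30, 13 keratins were lower, and Krt18 was 1.55-fold and Krt8 1.13-fold higher.

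The simple keratins are given here across all 6 arrays. Krt18 stood at 3.07 at baseline, 3.84 after noise, 4.25 with saline and 4.81 with dexamethasone at 12 h, and 4.00 with saline and 4.15 with dexamethasone at 24 h. Krt8 stood at 1.61, 2.05, 2.94, 3.37, 2.08 and 2.61 in the same order. For both partners, the baseline array was the lowest and the 12 h array with dexamethasone the highest. Krt19 stood at 0.37, -0.12, 0.75, 1.29, -0.13 and 0.54, so its lowest arrays were noise alone and saline at 24 h, which differed by 0.01. Krt7 stayed between -0.73 at baseline and -0.18, and Krt20 between -4.46 and -3.59. Over the 6 arrays Krt8 followed Krt18 with a Pearson r of 0.94 and Krt19 with 0.82, while Krt7 followed Krt19 with 0.31. These are descriptions over arrays that share their scaling and the tissue differences given above.

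**Figure D3:**
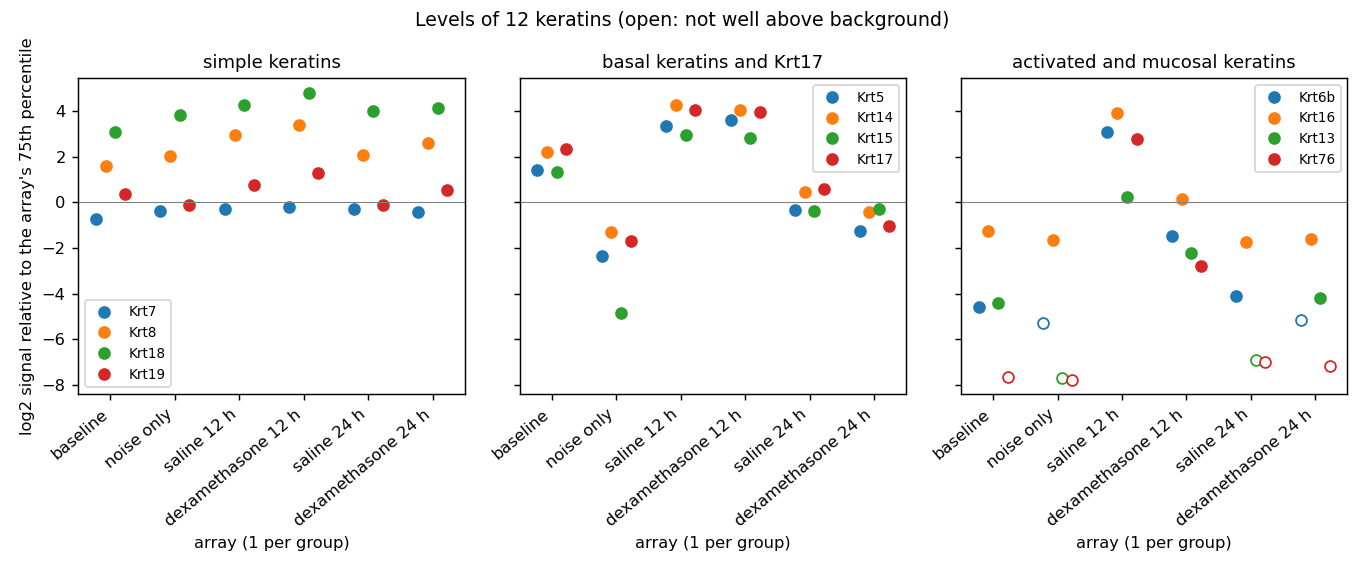
Log2 signal relative to the array's 75th percentile for 12 keratins on each array, 1 point per gene and array; open points were not well above background. Krt8 and Krt18 stay within 1.76 log2 units over the 6 arrays, the basal keratins and Krt17 span 5.59 to 7.77, and Krt6b, Krt16, Krt13 and Krt76 are highest with saline at 12 h; heights of different genes are not comparable.

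Among the stratified pairs, Pearson r over the 6 arrays was 1.00 for Krt5 with Krt14, 0.92 for Krt5 with Krt15, 0.98 for Krt1 with Krt10, 0.93 for Krt6a with Krt17, 0.89 for Krt6a with Krt16 and 0.74 for Krt4 with Krt13. Krt4 was below background on 2 arrays and so was Krt13, and Krt1 was on 1 array.

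The fourth comparison asked what differed with dexamethasone at 12 h, and it lies within the second slide. Of 37 keratins measured on both arrays, 11 were lower with dexamethasone and 1 was higher, or 29.7% lower and 2.70% higher, where 1.87% of all 24179 measured genes were lower and 1.67% higher. The lower genes were 3 of 4 measured mucosal, 3 of 5 activated and 4 of 7 suprabasal keratins and the root sheath keratin Krt72. In the basal class 0 of 3 were lower, in the simple class 0 of 5 and in the hair and nail class 0 of 5 measured. A second probe of the hair keratin Krt32, given above, was above background with saline only. Medians ran from -3.33 over mucosal through -1.24 over activated and -1.03 over suprabasal to -0.12 over basal keratins, beside -0.02 over all genes.

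Krt76 stood at 2.77 with saline and -2.77 with dexamethasone, 46.7-fold lower (35.0 to 62.4). Krt6b stood at 3.11 and -1.47, 23.9-fold lower (18.1 to 31.7). Krt24 stood at -0.32 and -4.51, 18.2-fold lower (12.0 to 27.4). Krt16 stood at 3.90 and 0.13, 13.6-fold lower (10.3 to 18.0). Krt13 stood at 0.26 and -2.23, 5.58-fold lower (4.21 to 7.41). For each of these 5 keratins the dexamethasone array at 12 h lay below the saline array and above the baseline array, and on the other 4 arrays the level was -1.24 or lower. The second comparison, where these 5 keratins were higher, used the same single saline array at 12 h. The 2 comparisons are therefore not independent. The suprabasal keratins differed less: Krt78 was 3.43-fold lower (2.54 to 4.62), Krt10 2.94-fold (2.23 to 3.88), Krt77 2.12-fold (1.59 to 2.83) and Krt1 2.05-fold (1.55 to 2.72). The other Krt1 probe differed by -0.20 on the log2 scale, short of 2-fold. Krt6a was 2.35-fold lower (1.78 to 3.11), at 2.73 from 3.97.

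The basal keratins and Krt17 were close on the 2 arrays. Krt5 stood at 3.35 with saline and 3.60 with dexamethasone (1.19-fold higher, 0.898 to 1.56). Krt14 stood at 4.28 and 4.06 (1.17-fold lower, 0.883 to 1.54), Krt15 at 2.93 and 2.82 (1.08-fold lower, 0.822 to 1.43) and Krt17 at 4.04 and 3.97 (1.05-fold lower, 0.797 to 1.39). Krt4 stood at -3.95 and -3.67 (1.21-fold higher, 0.822 to 1.79) while its partner Krt13 was lower. The keratins above 0 by more than their spot error included Krt18 (1.47-fold, 1.12 to 1.94), Krt19 (1.46-fold, 1.11 to 1.93) and Krt8 (1.35-fold, 1.02 to 1.78).

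**Figure D4:**
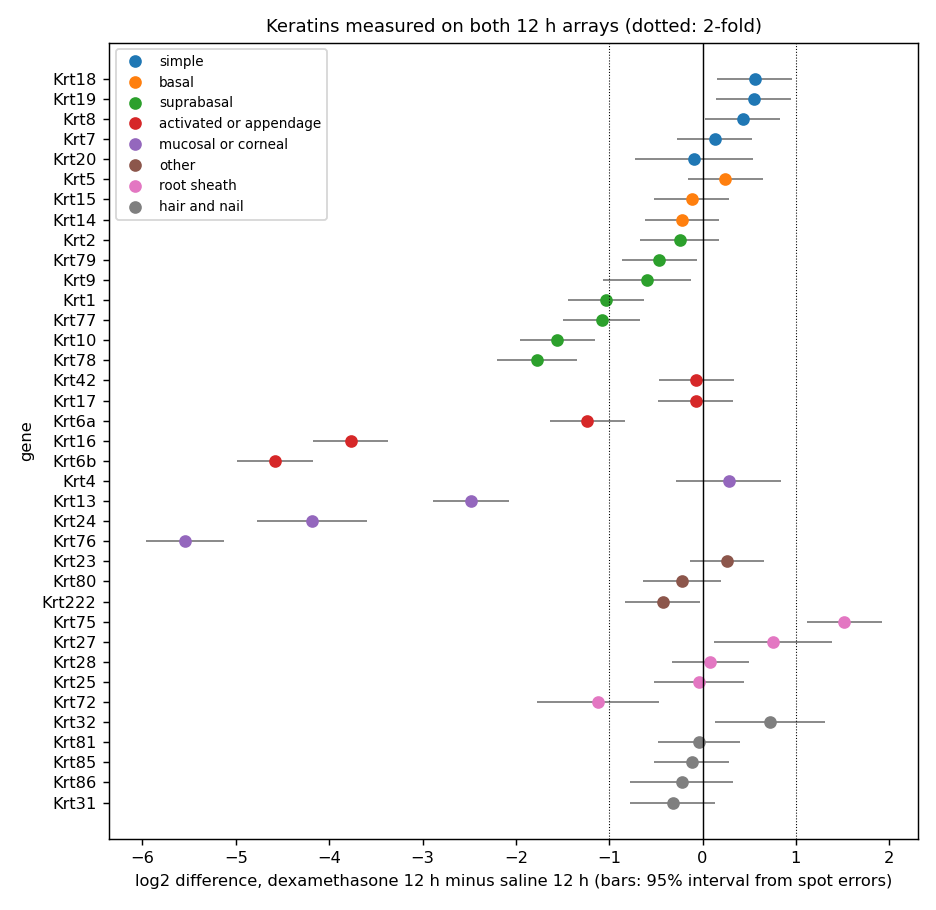
Log2 difference between dexamethasone and saline at 12 h for the 37 keratins measured on both arrays, ordered by class, with bars for the 95% interval from spot errors; dotted lines mark 2-fold. Basal keratins lie between -0.22 and 0.24, mucosal keratins other than Krt4 between -5.55 and -2.48, and Krt75 is the 1 gene beyond 2-fold higher.

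Other gene groups at 12 h are set beside these values. Of 14 measured cornified envelope genes 4 were lower with dexamethasone and 0 higher, with a median of -0.56. Of 9 measured genes of mucosa and glands 3 were higher and 0 lower, with a median of 0.70, so their sum was higher on the array where the mucosal keratins were lower. Of 11 measured genes of epithelial transcription factors, 1 was higher with dexamethasone and 0 lower. Their median was 0.36, and 10 lay above 0. The higher gene was Ehf, at 2.62-fold. Trp63, the transcription factor of basal cells, stood between 2.02 and 2.28 on all 6 arrays, but others of the list moved. Against baseline, Grhl3 was 2.99-fold lower after noise alone, and Barx2 and Ehf were 2.08-fold and 2.42-fold higher with saline at 12 h. Of 12 measured desmosome genes, whose proteins anchor keratin to cell junctions, 2 were lower, Dsg1a and the desmocollin Dsc1, and of 10 hemidesmosome genes 0 were lower or higher. Muscle genes had a median of -0.67 and cerebellar genes of 0.14. The part of these groups in the keratin differences was not tested. With spike-in scaling the median of all genes shifted by 0.29, and 7 keratins were lower and 3 higher, which took the share of higher among calls from 8.33% to 30.0%; the medians of basal (0.17), hair (0.17) and other (0.07) keratins and the differences of Krt14, Krt15 and Krt17 then lay on the other side of 0. Krt1 (1.68-fold), Krt77 (1.73-fold), Krt6a and Krt72 were no longer 2-fold lower on that scale, and Krt17 also changed side with quantile normalization.

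The fifth comparison, dexamethasone against saline at 24 h, lies within the first slide. Of 25 measured keratins 2 were lower (8%) and 0 higher, where 1.53% of all 22710 measured genes were lower and 1.63% higher. Krt17 stood at 0.60 with saline and -1.04 with dexamethasone, 3.11-fold lower (2.35 to 4.11). Krt75, a keratin of the companion layer of the hair follicle, stood at -1.14 and -2.30, 2.24-fold lower (1.66 to 3.00). Krt10 was 1.89-fold lower (1.43 to 2.49), Krt5 1.88-fold (1.42 to 2.49) and Krt14 1.82-fold (1.38 to 2.40), whereas Krt15 (1.06-fold, 0.804 to 1.41), Krt6a (1.08-fold, 0.816 to 1.43) and Krt16 (1.08-fold, 0.812 to 1.44) were slightly higher with intervals that include no change, Krt15 turning to the other side of 0 (-0.02) with spike-in scaling. Krt13 was above background with dexamethasone only, at least 1.40-fold higher, and Krt4 likewise, at least 2.15-fold higher, while Krt33a was above background with saline only, at least 2.42-fold lower. The suprabasal Krt9 was 1.95-fold higher (1.44 to 2.63). Krt19 was 1.59-fold higher (1.20 to 2.10) and Krt8 1.44-fold (1.09 to 1.90). Medians were 0.09 over 11 measured stratified keratins, of which 6 lay above 0, 0.15 over simple and 0.08 over hair keratins. The median over all genes was -0.005. With spike-in scaling the stratified (-0.02) and hair (-0.03) medians lay below 0. Krt76 and Krt24 were not well above background on either array. With spike-in scaling the median of all genes shifted by -0.11 and 4 keratins were lower.

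Taking both times in 1 model is the only comparison with a test. In limma, with time as a term on 4 arrays and 1 residual degree of freedom, 0 of 24767 genes and 0 of 38 keratins passed an adjusted p of 0.05. At an unadjusted p under 0.05 there were 7 keratins (18.4%) and 3634 genes (14.7%), so the share of keratins is near the background. Krt10 had the smallest adjusted p of the keratins, at 0.158 in limma, with a log2 difference of -1.24 and a standard error of 0.19, and it was lower with dexamethasone at both times. The other 6 at that unadjusted level were Krt1, Krt14, Krt6b and Krt77, lower, and Krt8 (log2 0.48, standard error 0.11) and Krt19 (0.61, standard error 0.12), higher. For Krt1 the log2 difference was -1.41 with the probe used and -0.73 with the mean over its probes. Krt6b, Krt77 and Krt1 were not well above background with dexamethasone at 24 h. With spike-in scaling limma called 7 of 38 keratins, Krt1, Krt10, Krt16, Krt24, Krt6b, Krt76 and Krt77, all lower, and 536 of 24767 genes. On the main scale, limma gave Krt16, Krt24 and Krt76 adjusted p of 0.436, 0.402 and 0.391, with standard errors of 0.90, 0.99 and 1.26. Krt24 and Krt76 were not well above background on either 24 h array, so their calls rest on the 12 h arrays.

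The hair and root sheath keratins were mostly dim. Of 15 hair and nail keratins, 3 were above background on all 6 arrays, Krt31, Krt81 and Krt85, and they ranged over 0.33, 0.92 and 0.38 log2 units. Krt85, a keratin of the hair cortex, stood between 0.28 and 0.66, with a probe of no listed position. Krt33a was above background only with saline at 24 h (-3.55), at least 3.40-fold above baseline. Among root sheath keratins, Krt25 was above background after noise alone (-3.08) and on both 12 h arrays (-3.38 and -3.42) and at -6.79 or lower on the other 3. Krt71 showed the reverse set of arrays, above background at baseline (-3.89) and at 24 h with saline (-3.94) and dexamethasone (-3.38) and at -6.58 or lower elsewhere. Krt28 was above background on all arrays, between -3.46 and -2.03.

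Krt75 ranged over 4.01 log2 units and was the other root sheath keratin above background on all 6 arrays. It stood at 0.07 at baseline, -2.65 after noise, -0.16 with saline and 1.36 with dexamethasone at 12 h, and -1.14 with saline and -2.30 with dexamethasone at 24 h. It was thus 2.86-fold higher with dexamethasone at 12 h (2.17 to 3.78) and 2.24-fold lower at 24 h. Krt23 stood at 2.39 and 2.65 on the 12 h arrays and between 0.53 and 1.04 on the others. Krt222 was between 1.71 and 2.74. Krt80 ranged over 0.40 log2 units with the probe used, but another of its 3 probes was 1.21 higher on the log2 scale with saline at 12 h than at baseline, so that its probes disagree.

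The genes whose pattern was most like that of the stratified keratins were found among 718 genes outside the family with a range of at least 2 log2 units and above background on all arrays. The profile was the mean of the 11 stratified keratins above background on all 6 arrays. Serpinb5, a serpin of epithelial cells, followed it with a Pearson r of 1.00 over 6 arrays, and next came Cxcl5, a neutrophil-attracting chemokine (0.99), Cstdc5 (0.99), Calml3 (0.99) and Cdsn, the corneodesmosin of cornified cells (0.99), then a transcript named by position only, Crybg2, Gsdma, Fndc9 and Cysrt1. For the 5 simple keratins the closest were Abra (0.97), Ankrd2 (0.97), Myf6 (0.97) and Mstn (0.94), genes known from skeletal muscle, then, among others, Gm16062, Trim54, Hspb7, Cxcl1 and Mybph. With 6 arrays and so many candidates, high values of r arise readily, and these are descriptions only.

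Of 8 other intermediate filament genes measured (vimentin, desmin, Gfap, nestin, synemin and 3 lamins), 1 was 2-fold higher with saline at 12 h than at baseline, beside 4.41% of all genes, and 1 with dexamethasone against saline at 24 h, beside 1.63%; 0 passed 2-fold in the other 3 comparisons. The first was desmin, the filament of muscle cells, at 0.02 at baseline and 1.86 with saline at 12 h, and the second Gfap, the filament of glial cells, at 0.99 with saline and 2.01 with dexamethasone. Simple epithelium genes such as Epcam and Cdh1 were above background on every array, and 1 of 10 was higher with saline at 12 h, with a median of 0.36.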

How the data were processed

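Cochlear RNA of 6 groups was measured with 1 Agilent array per group, after column purification and Cy3 labelling per the labels' protocols. Intensity values in the deposited scanner files are those the authors obtained, per the file headers, with Agilent Feature Extraction 10.10.1.1, including background subtraction. The deposited series matrix holds log2 values; subtracting each column from log2 of that array's processed signal left the same constant for 100% of probes, within 0.01, with column medians of -2.95, -2.98, -2.85, -2.81, -2.93 and -2.90 (baseline, noise, saline 12 h, dexamethasone 12 h, saline 24 h, dexamethasone 24 h), so no scale, centring or direction stays unknown.

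Spots marked as outliers were dropped. Processed signals were put on the log2 scale and averaged per probe, and the array's 75th percentile was subtracted. Each array had 59305 non-control spots, 0 saturated, with 63.0% to 70.3% of probes well above background; probes spotted repeatedly had a median SD of 0.0353 to 0.0382. Of 56605 probes, 16 were left out, and 32983 were matched to GRCm38.p6 names by accession. A gene took its probe with the highest mean; 37 keratins had 1 probe and 15 more. A fold against an array not above background was taken from the higher of that array's lowest signal well above background and the probe's own signal.

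Every keratin could be named; per-array values were given for those at least 2-fold apart in any comparison and for the main pairs. Some items that the rules name are not reported here. The members and lists were chosen with earlier results of these data known. limma 3.58.1 in R 4.3.3 (lmFit, eBayes with trend, Benjamini-Hochberg adjustment) fitted genes above background on at least 2 of 4 arrays. On simulated data for that fit over 24767 genes it recovered 30% of 2-fold, 83% of 4-fold and 93% of 16-fold changes, with 24 false calls. Python 3.11.15, pandas 2.3.3, numpy 2.4.6 and matplotlib 3.10.9 did the rest. Alternatives changed the scaling, background correction, filter, probe rule, fold threshold and fit; the arrays' number limits the precision.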

Additional observations from a re-analysis of the deposited data

Results flagged for a closer look

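Krt75 differed with dexamethasone in opposite directions at the 2 times: its log2 difference from saline was 1.52 at 12 h and -1.16 at 24 h. Each value comes from 1 array against 1 array, and the difference between the times was not tested. It is listed because the 2 values lie on opposite sides of 0, each by more than 2-fold.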

How the results depend on the processing

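No 2-fold difference changed sign under any alternative. The series matrix values, quantile normalization and a percentile taken over the probes seen on all arrays kept every count of keratins within 1.5 times its value in the report. Counts are given below as higher and lower keratins, and where only 1 direction is named the other is not given. The shares of all genes under these alternatives are not given beside them. The counts therefore show change with the processing, not an excess of keratins over other genes. The cause of each change was not tested unless stated. Without a filter on dim probes, when more genes enter, the counts were 2 and 24 for noise, 24 and 4 for saline at 12 h, 1 higher for saline at 24 h, 3 higher for dexamethasone at 12 h, and 2 and 6 for dexamethasone at 24 h. With genes at or above the median signal only, when fewer genes enter, they were 7 lower for noise, 9 and 0 for saline at 12 h, 6 lower for saline at 24 h, 0 and 2 for dexamethasone at 12 h, and 1 lower at 24 h. With spike-in scaling they were 8 and 3 for saline at 12 h, 3 and 7 for dexamethasone at 12 h, and 4 lower at 24 h. At 1.5-fold they were 1 higher for noise, 2 lower for saline at 12 h, 2 higher at 24 h, 3 higher for dexamethasone at 12 h, and 2 and 6 at 24 h. At 3-fold they were 5 lower for saline at 24 h, 0 and 6 for dexamethasone at 12 h, and 1 lower at 24 h. For dexamethasone at 24 h, normexp background correction and the mean over a gene's probes each left 1 lower keratin. The limma fit called 536 genes and 7 keratins with spike-in scaling, 951 genes and 5 keratins without the filter, and 0 to 21 genes with an array left out, 21 of them without the dexamethasone array at 12 h; those fits had no time term. The limma fit of the report sets dexamethasone against saline within each time; no fit with a replicate block could be made, since the labels give no replicate numbers and each group has 1 array. Signal over background limits the mucosal, root sheath and hair keratins.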
